A study of Mus musculus with 12 samples.

Results

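The 10 genes described here code for 7 matrix metalloproteinases (Mmp2, Mmp3, Mmp12, Mmp13, Mmp14, Mmp15 and Mmp19) and 3 tissue inhibitors of metalloproteinases (Timp1, Timp2 and Timp3). They were taken by gene symbol from the 24147 genes of the count files, and all 10 were among the 14560 genes with enough counts to be tested. RNA had been sequenced from the lens capsule and the lens epithelial cells that stay on it once the fiber cells are taken out of the lens of a living mouse, an operation that models cataract surgery. The 4 groups held 3 libraries each, from mice 2 months old. They were FNcKO 48 h and FNcKO 0 h, from mice with a conditional knockout of fibronectin (gene Fn1) on a mixed strain background (C57BL/6, 129, FVB/N), and WT 48 h and WT 0 h, from C57BL/6 wild type mice. At 0 h the capsules were collected directly after fiber cell removal, and at 48 h they had stayed in the eye for 48 h after it. All 12 libraries thus came from operated lenses. The design text calls the libraries of a group biological triplicates. The promoter that drives the Cre recombinase, the deleted part of Fn1 and the number of lenses per library are unknown from the sources used. Since strain background and genotype coincide, they cannot be told apart in any comparison of FNcKO with WT.

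Matrix metalloproteinases are zinc enzymes that cut collagens, laminins, fibronectin and other proteins of the matrix, and also release or inactivate growth factors and chemokines. Most are secreted as inactive proenzymes, while Mmp14 and Mmp15 code for membrane-type enzymes that stay at the cell surface. TIMPs bind to the active site of these enzymes and block it, and TIMP2 also bridges MMP14 and the proform of MMP2 so that MMP2 can be activated. In the lens, metalloproteinase activity has been studied in the epithelial-to-mesenchymal change of the cells left behind by cataract surgery and in the wrinkling of the capsule. RNA levels, which are what was measured here, do not give the amount of protein or the activity of an enzyme.

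Library totals ran from 8368160 to 10862573 counts, and 15924 to 16962 genes had a count. Levels are counts per 1e+06 (CPM) after TMM scaling of the libraries. Counting error alone lets a gene with 0 counts have a true level of up to 3 counts, which is 0.286 CPM in the deepest library after scaling and 0.430 CPM in the shallowest. Fn1, the targeted gene, had 146, 298 and 688 CPM in FNcKO 48 h libraries and 16.8, 9.81 and 8.32 CPM in FNcKO 0 h libraries. It had 1515, 528 and 979 CPM in WT 48 h libraries and 19.0, 23.1 and 15.5 CPM in WT 0 h libraries. Fn1 RNA was therefore still counted in FNcKO lenses, its ranges overlapped between the genotypes at each time, and the difference did not pass the test (log2 −1.42 and −0.72 at these times, with BH-adjusted p = 0.713 and 0.609 in edgeR). The counts cover the whole gene, so a deletion of some exons need not show in them. Of 9 lens epithelial markers, Pax6 was counted at 294 to 403 CPM in FNcKO 48 h, 507 to 521 CPM in FNcKO 0 h, 353 to 393 CPM in WT 48 h and 416 to 509.7 CPM in WT 0 h, and Cdh1 at 138 CPM or more in every library. Cdh1 was nevertheless lower at 48 h than at 0 h (log2 −1.27 in FNcKO and −1.09 in WT lenses, edgeR, BH-adjusted p = 0.00602 and 0.011). Npnt was lower as well (log2 −2.97 and −2.96, edgeR, BH-adjusted p = 0.000816 and 0.000598). The 48 h libraries lay below the 0 h libraries for 7 of 8 tested markers in FNcKO and 8 of 8 in WT lenses (17.3% and 23.9% of all tested genes). Sfrp2 had 0 to 5 counts per library. The sum over the list is not used as a measure of epithelial content, since Cryaa and Cryab, which fiber cells also make, carry most of it.

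The start regions of 5 of the genes are shown because their levels are the ones the results turn on: Mmp3, Mmp12, Timp1 and Mmp14 had the largest fold changes over time, and Mmp13 lies beside Mmp3 and Mmp12 on chromosome 9 and did not pass the test. RefSeq windows on GRCm38.p6, from 250 bases before to 50 bases after an annotated start, were at hand for 8 of the 10 genes (Mmp2 and Mmp19 had none) and were searched on both strands. Capitals mark TGANTCA, the binding sequence of AP-1 (dimers of Fos and Jun proteins), TATAAA, the TATA box, GGGCGG, the GC box bound by Sp family factors, which reads CCGCCC where it lies on the other strand, and TGAGTAA, a variant of the AP-1 sequence that was added after the Timp1 window had been read. The 5 windows are all on the plus strand, at chr9:7445572-7445871 (Mmp3), chr9:7347124-7347423 (Mmp12), chr9:7272264-7272563 (Mmp13), chrX:20869916-20870215 (Timp1) and chr14:54431348-54431647 (Mmp14).
Mmp3: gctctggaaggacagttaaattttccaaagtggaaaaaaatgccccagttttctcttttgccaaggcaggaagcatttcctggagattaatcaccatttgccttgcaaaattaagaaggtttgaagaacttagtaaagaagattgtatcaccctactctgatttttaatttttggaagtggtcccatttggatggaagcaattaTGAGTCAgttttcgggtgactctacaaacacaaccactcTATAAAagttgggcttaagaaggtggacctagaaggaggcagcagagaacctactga
Mmp12: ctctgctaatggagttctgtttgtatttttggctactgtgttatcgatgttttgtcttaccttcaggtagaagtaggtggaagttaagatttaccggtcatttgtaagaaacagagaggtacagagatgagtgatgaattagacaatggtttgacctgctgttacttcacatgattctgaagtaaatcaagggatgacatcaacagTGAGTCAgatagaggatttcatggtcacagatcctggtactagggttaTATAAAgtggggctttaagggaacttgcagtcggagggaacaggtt
Mmp13: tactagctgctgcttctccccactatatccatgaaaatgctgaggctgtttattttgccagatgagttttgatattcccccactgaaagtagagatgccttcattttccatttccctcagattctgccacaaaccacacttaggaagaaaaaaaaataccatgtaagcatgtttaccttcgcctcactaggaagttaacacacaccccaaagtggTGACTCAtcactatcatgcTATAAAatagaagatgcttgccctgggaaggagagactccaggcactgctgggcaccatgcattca
Timp1: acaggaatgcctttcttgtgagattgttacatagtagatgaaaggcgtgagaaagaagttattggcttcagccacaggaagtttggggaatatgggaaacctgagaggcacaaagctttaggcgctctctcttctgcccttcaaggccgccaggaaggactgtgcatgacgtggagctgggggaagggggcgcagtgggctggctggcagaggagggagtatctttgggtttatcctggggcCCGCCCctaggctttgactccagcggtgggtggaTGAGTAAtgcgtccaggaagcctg
Mmp14: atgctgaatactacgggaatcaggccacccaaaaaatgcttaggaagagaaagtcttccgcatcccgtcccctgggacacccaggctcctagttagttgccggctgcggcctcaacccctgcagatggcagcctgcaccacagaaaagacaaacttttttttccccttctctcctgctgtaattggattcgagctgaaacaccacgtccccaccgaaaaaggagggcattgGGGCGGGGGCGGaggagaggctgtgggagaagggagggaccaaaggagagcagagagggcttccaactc

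Positions have no 0, and the annotated start base is the first positive position. TGANTCA began at −46 in Mmp3, −44 in Mmp12 and −35 in Mmp13, and it was in none of the other windows of these genes. It occurred in 7.81% of all 32851 windows of the table. TATAAA was found in the windows of Mmp3, Mmp12 and Mmp13 too, against 13.6% of all windows, and began after the start, at 5, in Mmp12. GGGCGG on either strand was in the windows of Mmp14, Mmp15, Timp1, Timp2 and Timp3, against 35.7% of all windows. TGAGTAA began at 27 in Timp1 and was in 2.68% of all windows. Mmp12 has another annotated start, whose window held none of these motifs. The matches describe letters in a window and say nothing of what binds there.

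Of the 10 genes, 5 were higher and 1 was lower at 48 h than at 0 h in FNcKO lenses, and the same counts were found in WT lenses. The 6 genes were the same in both genotypes: Mmp3, Mmp12, Mmp14, Mmp19 and Timp1 rose, and Mmp15 fell. Timp2, Timp3, Mmp2 and Mmp13 did not pass the test in either. Mmp3 and Mmp12 had at most 3 and 6 counts in any 0 h library and entered the test through their 48 h libraries. The tally of the 10 genes and their median below are therefore not read as support. The threshold was a BH-adjusted p under 0.05 over all 14560 genes in edgeR's quasi-likelihood test. It was passed by 24.8% of all genes in FNcKO lenses (14.9% higher, 9.90% lower) and by 32.6% in WT lenses (19.1% higher, 13.5% lower), so changes were common across the genome. With scaling to total counts in place of TMM, 82.4% and not 60.1% of the calls in FNcKO lenses were in the higher direction, and 76.3% and not 58.5% in WT lenses. Under that scaling the median log2 fold change of all genes was 0.29 in FNcKO lenses and 0.23 in WT lenses, against 0.0018 and 0.016 with TMM, and the 6 genes still passed in the same direction. The median over the 10 genes with TMM was a log2 fold change of 1.35 in FNcKO lenses and 1.55 in WT lenses.

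**Figure D1:**
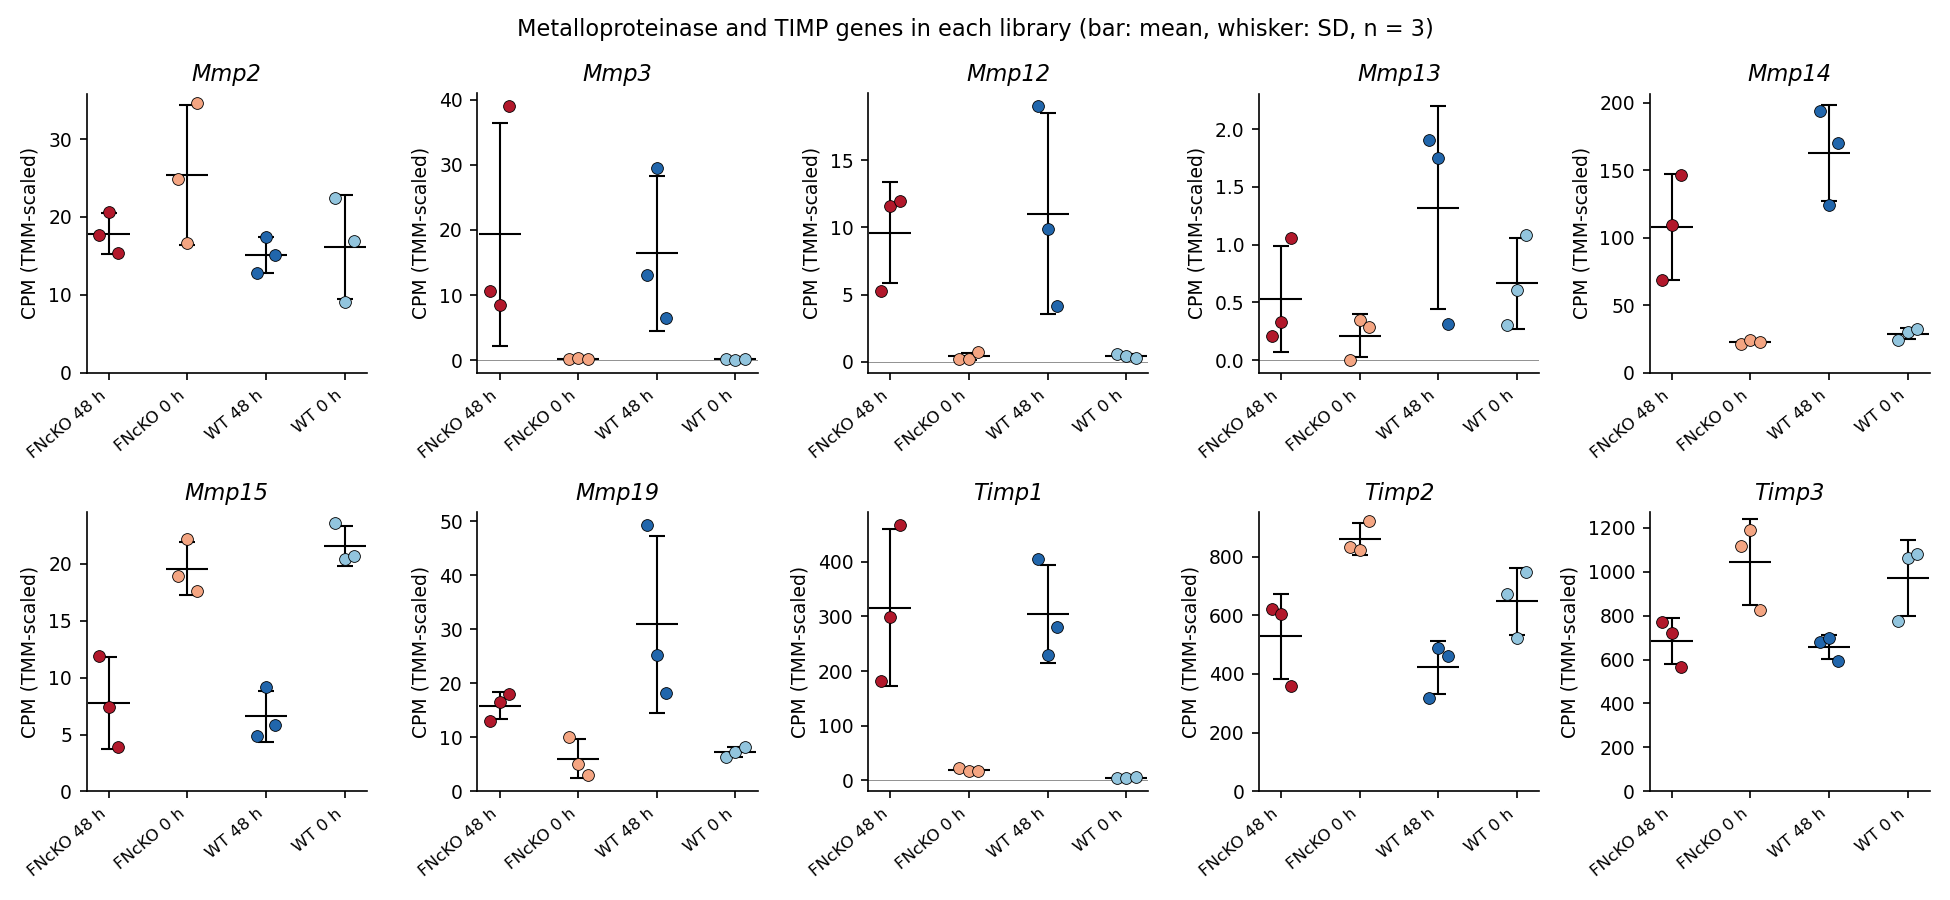
TMM-scaled CPM of each gene in each library, in panels with separate axes that start at or below 0; points are libraries, the horizontal bar is the mean and the whiskers the SD of 3 libraries. Timp1, Mmp14, Mmp3, Mmp12 and Mmp19 sat higher in every 48 h library than in any 0 h library, and Mmp15 lower.

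**Figure D2:**
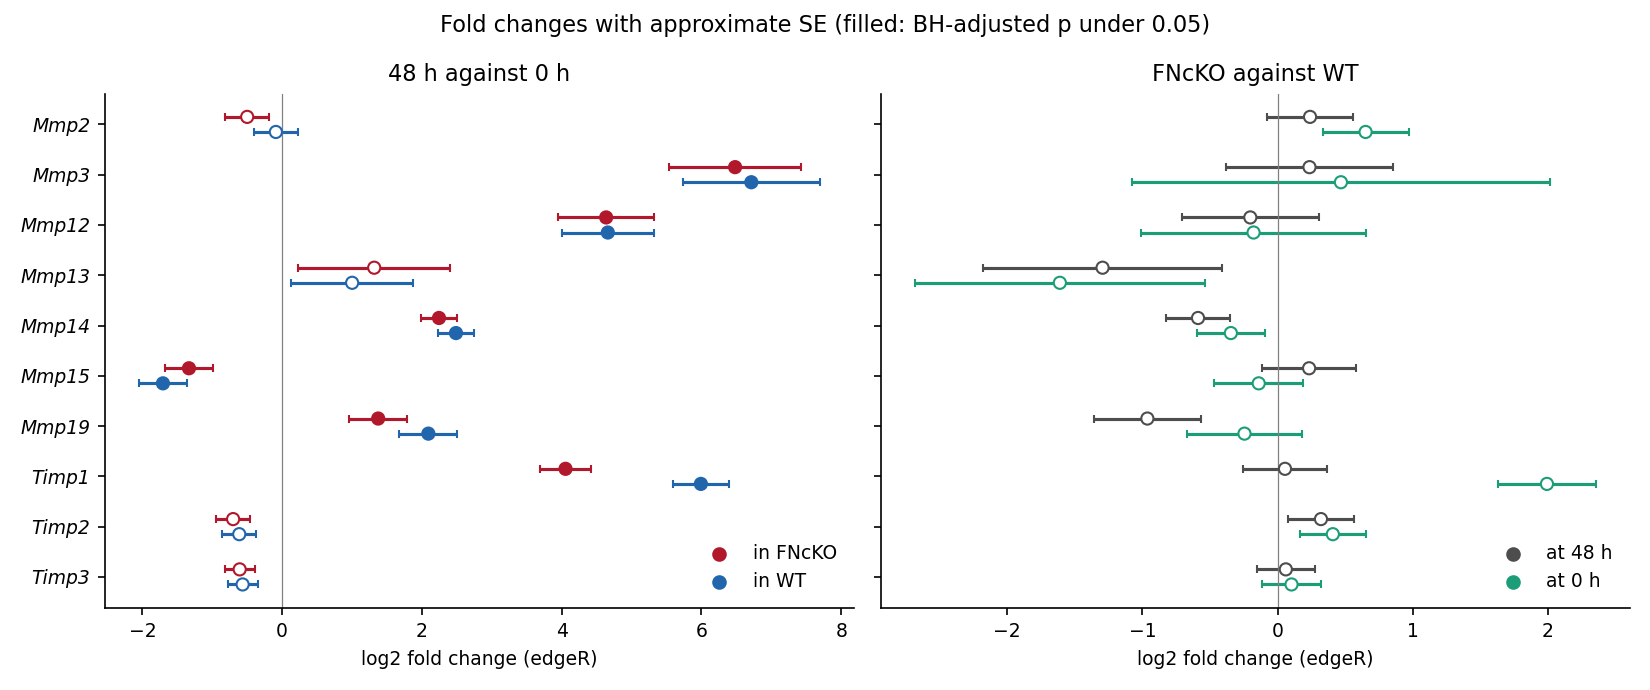
Log2 fold changes from edgeR with an approximate SE, on the left for 48 h against 0 h in FNcKO and WT lenses and on the right for FNcKO against WT at 48 h and at 0 h; filled points passed a BH-adjusted p of 0.05 over all genes. On the left 6 genes are filled in both genotypes, and on the right none is.

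Among the secreted enzymes, Mmp3 (stromelysin, which cuts many matrix proteins and activates other proenzymes) had the largest fold change of the 10 genes. It had 10.6, 8.41 and 39.0 CPM in FNcKO 48 h libraries, against 0.112, 0.346 and 0.143 CPM in FNcKO 0 h libraries. It had 13.1, 29.6 and 6.54 CPM in WT 48 h libraries, against 0.201, 0 and 0.241 CPM in WT 0 h libraries. Every 48 h library was above every 0 h library, where at most 3 counts were found (ranges apart in the higher direction: 20.1% of all tested genes in FNcKO and 27.5% in WT lenses), and the 48 h libraries of each genotype differed over 4-fold among themselves. The log2 fold change was 6.48 ± 0.95 in FNcKO lenses and 6.71 ± 0.98 in WT lenses (approximate SE, edgeR, BH-adjusted p = 0.000665 and 0.000449). Since Mmp3 entered the test through its 48 h libraries, these p values and the calls below are not read as support. In summed counts, 546 against 5 in FNcKO lenses gave a depth-scaled ratio of 95.6 (40.7 to 296, exact 95% interval for counting error only), and 505 against 4 in WT lenses gave 116 (45.2 to 429). The fitted size rests on single libraries: in FNcKO lenses the log2 value was 5.46 with replicate 3 of the 48 h group left out and 7.12 with replicate 2 of the 0 h group left out, and in WT lenses it was 5.98 without WT 48 h replicate 2 and 6.12 without WT 0 h replicate 2, with each still past the threshold.

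Mmp12 codes for macrophage elastase, an enzyme made mainly by macrophages. It had 5.28, 11.6 and 11.9 CPM in FNcKO 48 h libraries, against 0.224, 0.231 and 0.717 CPM in FNcKO 0 h libraries. It had 19.0, 9.92 and 4.15 CPM in WT 48 h libraries, against 0.602, 0.408 and 0.241 CPM in WT 0 h libraries. The 48 h and 0 h ranges were apart in both genotypes, and the FNcKO and WT ranges overlapped at both times. The log2 fold change was 4.64 ± 0.68 in FNcKO lenses and 4.66 ± 0.66 in WT lenses (approximate SE, edgeR, BH-adjusted p = 0.000496 and 0.000257). Mmp12 also entered the test through its 48 h libraries, so its p values are not read as support. The summed counts gave a ratio of 26.2 (13.6 to 57.8) in FNcKO lenses, from 269 against 9 counts, and 26.3 (14.9 to 51.4) in WT lenses, from 342 against 12 (exact 95% intervals). The log2 value was 5.28 without FNcKO 0 h replicate 3 and 4.02 without WT 48 h replicate 1.

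Because whole capsules were taken, more cells of a type and more RNA per cell cannot be told apart, and neither can fewer cells and less RNA per cell. Of 15 markers of macrophages and monocytes, 6 rose, 1 fell and 8 did not pass in FNcKO lenses. In WT lenses 7 rose, none fell and 8 did not pass. Over all tested genes, 14.9% rose in FNcKO and 19.1% in WT lenses. Ccr2 and Ly6c2, among the 15, had at most 9 counts in any 0 h library, and Aif1 had at most 15. These genes entered the test through their 48 h libraries, so the tally is not read as support. The summed level of the 15 markers was 159 to 338 CPM in FNcKO 48 h, 75.2 to 123 CPM in FNcKO 0 h, 276 to 724 CPM in WT 48 h and 84.7 to 188 CPM in WT 0 h. None of the 15 was at 0 in all libraries. WT 48 h replicate 1 had the highest macrophage sum and the highest Mmp12 level of the 12 libraries. Of the neutrophil markers, Csf3r (the receptor of granulocyte colony stimulating factor) had 19.7, 21.5 and 45.8 CPM in FNcKO 48 h, 150.3, 26.4 and 25.5 CPM in WT 48 h and at most 2.29 CPM in any 0 h library. S100a8, S100a9 and Retnlg had at most 2 counts in any 0 h library and entered the test through their 48 h libraries, and Mpo, Elane, Ngp and Camp had at most 7 counts in any library, so no tally of this list is given. The summed level of the 9 neutrophil markers in the files was 41.5 to 112 CPM in FNcKO 48 h, 4.02 to 4.88 CPM in FNcKO 0 h, 61.3 to 348 CPM in WT 48 h and 4.82 to 10.3 CPM in WT 0 h. The part of these cells in the change of Mmp12 or of any other gene here was not tested.

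Mmp19, a broad-acting enzyme of basement membranes, had 13.1, 16.5 and 18.0 CPM in FNcKO 48 h libraries, against 10.1, 5.08 and 3.01 CPM in FNcKO 0 h libraries. It had 49.4, 25.2 and 18.2 CPM in WT 48 h libraries, against 6.32, 7.24 and 8.19 CPM in WT 0 h libraries. The groups did not overlap over time in either genotype, and the lowest WT 48 h library lay just above the highest FNcKO 48 h library. The log2 fold change was 1.37 ± 0.42 in FNcKO lenses and 2.09 ± 0.41 in WT lenses (approximate SE, edgeR, BH-adjusted p = 0.0288 and 0.00233). The call in FNcKO lenses was lost when replicate 2 or replicate 3 of FNcKO 0 h was left out (log2 1.26 and 1.02, BH-adjusted p = 0.0942 and 0.0993 in edgeR). It was also lost when replicate 2 or replicate 3 of FNcKO 48 h was left out (log2 1.35 and 1.28, BH-adjusted p = 0.0665 and 0.0907); over all alternatives the adjusted p ran from 0.00958 to 0.0993. Mmp19 overlaps Tmem198b, which had 124 to 306 counts, and no source used states the strand setting of the counting, so reads of the pair may have been mixed.

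Mmp2, which codes for gelatinase A, a constitutive enzyme that cuts denatured collagen and type IV collagen, did not pass the test. It had 17.6, 20.6 and 15.3 CPM in FNcKO 48 h libraries, against 24.8, 16.6 and 34.6 CPM in FNcKO 0 h libraries. It had 12.8, 17.4 and 15.1 CPM in WT 48 h libraries, against 22.4, 9.08 and 16.9 CPM in WT 0 h libraries. The ranges overlapped in both genotypes, and the log2 fold change was −0.50 ± 0.32 in FNcKO lenses and −0.09 ± 0.32 in WT lenses (approximate SE, edgeR, BH-adjusted p = 0.274 and 0.849). Mmp13, a collagenase of fibrillar collagens, was near the limit of counting, with 2, 3 and 10 counts in FNcKO 48 h libraries and 0, 3 and 2 in FNcKO 0 h libraries. It had 20, 18 and 3 counts in WT 48 h libraries and 3, 6 and 9 in WT 0 h libraries. The ratio of its summed counts, 48 h over 0 h, was 2.63 (0.907 to 9.24) in FNcKO lenses and 2.10 (1.18 to 3.89) in WT lenses (exact 95% intervals for counting error only), and the test over libraries did not pass (edgeR, BH-adjusted p = 0.412 and 0.397).

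The membrane-type enzymes among the 10 genes, those of Mmp14 and Mmp15, moved in opposite directions. Mmp14, which cuts fibrillar collagen at the cell surface and activates the proform of MMP2, had 68.6, 109 and 147 CPM in FNcKO 48 h libraries, against 21.5, 24.1 and 22.9 CPM in FNcKO 0 h libraries. It had 194, 124 and 170.5 CPM in WT 48 h libraries, against 24.5, 30.5 and 32.2 CPM in WT 0 h libraries. The 0 h libraries were close to one another, and the lowest 48 h library, FNcKO 48 h replicate 1, was still over 2-fold above the highest of them. The rise was 4.74-fold in FNcKO lenses (log2 2.24 ± 0.26) and 5.61-fold in WT lenses (log2 2.49 ± 0.26; approximate SE, edgeR, BH-adjusted p = 8.25e-05 and 2.87e-05). Both calls held under all 20 alternative settings and left-out libraries.

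Mmp15, the other membrane-type enzyme among the 10 genes, had 11.9, 7.43 and 3.91 CPM in FNcKO 48 h libraries, against 18.9, 22.2 and 17.6 CPM in FNcKO 0 h libraries. It had 4.85, 9.14 and 5.81 CPM in WT 48 h libraries, against 23.6, 20.4 and 20.7 CPM in WT 0 h libraries. All 6 of the 48 h libraries were below all 6 of the 0 h libraries. The level was 2.52-fold lower at 48 h in FNcKO lenses (log2 −1.33 ± 0.34) and 3.26-fold lower in WT lenses (log2 −1.71 ± 0.34; approximate SE, edgeR, BH-adjusted p = 0.012 and 0.00238).

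Among the inhibitors, Timp1, which is known as the inducible TIMP and blocks most secreted metalloproteinases, had 182, 298 and 467 CPM in FNcKO 48 h libraries, against 22.8, 17.3 and 16.8 CPM in FNcKO 0 h libraries. It had 404, 229 and 279.9 CPM in WT 48 h libraries, against 4.11, 3.77 and 6.51 CPM in WT 0 h libraries. The 48 h ranges of the genotypes overlapped, while at 0 h every FNcKO library was above every WT library. The rise was 16.6-fold in FNcKO lenses (log2 4.05 ± 0.36) and 63.6-fold in WT lenses (log2 5.99 ± 0.40; approximate SE, edgeR, BH-adjusted p = 1.67e-05 and 1.55e-06).

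Timp2, which inhibits metalloproteinases and takes part in the activation of MMP2, had 621, 603 and 360.4 CPM in FNcKO 48 h libraries, against 832, 824 and 922 CPM in FNcKO 0 h libraries. It had 319, 488 and 463 CPM in WT 48 h libraries, against 673, 521 and 748 CPM in WT 0 h libraries. Every 48 h library was below every 0 h library of its genotype, and yet the test did not pass (log2 −0.70 ± 0.24 in FNcKO lenses and −0.61 ± 0.24 in WT lenses; approximate SE, edgeR, BH-adjusted p = 0.0504 and 0.0689).

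Timp3, whose protein binds to the matrix and also inhibits ADAM and ADAMTS enzymes, had 769, 719 and 566 CPM in FNcKO 48 h libraries, against 1117, 1189.8 and 823 CPM in FNcKO 0 h libraries. It had 679, 698 and 593 CPM in WT 48 h libraries, against 773, 1064 and 1078 CPM in WT 0 h libraries. Again the ranges did not overlap over time within a genotype, and the values lay just outside the threshold (log2 −0.61 ± 0.22 in FNcKO lenses and −0.57 ± 0.22 in WT lenses; approximate SE, edgeR, BH-adjusted p = 0.0552 and 0.06). Ranges that do not overlap downward were found for 17.3% of all tested genes in FNcKO lenses and 23.9% in WT lenses. DESeq2 placed Timp2 and Timp3 past the threshold in both genotypes (adjusted p = 0.0147 and 0.0119 in FNcKO lenses, 0.0280 and 0.0166 in WT lenses), with log2 values of −0.72 and −0.63 in FNcKO lenses and −0.64 and −0.59 in WT lenses. With edgeR, RLE size factors also placed Timp2 past the threshold in FNcKO lenses (BH-adjusted p = 0.0461), and leaving out both 0 h replicate 1 libraries placed Timp3 past it in WT lenses (0.0497). Leaving out 1 library brought an adjusted p under 0.05 in some cases. In FNcKO lenses this was so for Timp2 with replicate 2 of WT 0 h (0.0472), replicate 1 of WT 48 h (0.0426) or replicate 1 of FNcKO 48 h (0.0402) left out, and for Timp3 with replicate 3 of FNcKO 0 h left out (0.0199). In WT lenses it was so for Timp2 with replicate 3 of FNcKO 48 h left out (0.0357), and for Timp3 with replicate 1 of WT 0 h (0.0400), replicate 3 of FNcKO 0 h (0.0335) or replicate 3 of FNcKO 48 h (0.0496) left out. Over all alternatives the adjusted p in FNcKO lenses ran from 0.0147 to 0.190 for Timp2 and 0.0119 to 0.309 for Timp3, and in WT lenses from 0.0280 to 0.247 and 0.0166 to 0.276. Timp1 overlaps Syn1 (48 to 200 counts), Timp3 overlaps Syn3 (33 to 174) and Timp2 overlaps BC100451 (2 to 20). The counts of Timp2 and Timp3 were far larger, at least 3350 and 5356. These overlaps are of whole gene spans, and whether exons are shared was not examined. Further annotated genes overlap the spans of Timp1 and Timp3, and their counts were not examined. Timp1 had fewer counts than Syn1 at 0 h in WT lenses (41, 37 and 54, against 187, 170 and 103 of Syn1), so reads of the pair may have been mixed there, and the fold change of Timp1 in WT lenses rests on these low counts.

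Levels of different genes were compared per kilobase of coding length. At 48 h Mmp14 was the most abundant of the 7 enzymes, at 41.7 ± 15.1 CPM per kb in FNcKO and 62.7 ± 13.6 in WT lenses (SD, n = 3). In FNcKO 48 h it was followed by Mmp3 (10.7 ± 9.49), Mmp2 (5.88 ± 0.875), Mmp19 (4.59 ± 0.723), Mmp12 (2.66 ± 1.04), Mmp15 (1.81 ± 0.940) and Mmp13 (0.199 ± 0.171 CPM per kb). In WT 48 h the order was Mmp3 (9.12 ± 6.59), Mmp19 (8.95 ± 4.75), Mmp2 (4.98 ± 0.749), Mmp12 (3.06 ± 2.08), Mmp15 (1.54 ± 0.526) and Mmp13 (0.494 ± 0.328 CPM per kb). The spreads of the neighbours Mmp3, Mmp2 and Mmp19 (mean ± SD) overlapped in FNcKO 48 h, as did those of Mmp3, Mmp19 and Mmp2 in WT 48 h. The SDs leave out that the genes were counted in the same libraries. Within each WT 48 h library, Mmp19 was above Mmp2 per kb. At 0 h Mmp14 (8.80 ± 0.513 CPM per kb) and Mmp2 (8.33 ± 2.95) were within their spread of each other in FNcKO lenses, followed by Mmp15 (4.57 ± 0.545) and Mmp19 (1.75 ± 1.05). In WT 0 h lenses Mmp14 (11.2 ± 1.56 CPM per kb) led, Mmp2 (5.30 ± 2.20) and Mmp15 (5.04 ± 0.408) were within their spread, and Mmp19 followed (2.10 ± 0.271). Mmp3, Mmp12 and Mmp13 were all under 0.25 CPM per kb at 0 h in both genotypes.

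The makeup of both families differed between the times. Mmp14 made up 61.4% ± 4.68 of the summed per-length level of the 7 enzymes in FNcKO 48 h, 37.3% ± 4.65 in FNcKO 0 h, 69.0% ± 11.1 in WT 48 h and 46.7% ± 7.64 in WT 0 h (SD, n = 3). The share of Mmp3 was 14.5% ± 8.10 in FNcKO 48 h and 0.485% ± 0.346 in FNcKO 0 h, and 10.3% ± 8.29 in WT 48 h and 0.325% ± 0.283 in WT 0 h. Mmp2 had a share of 9.56% ± 3.71 in FNcKO 48 h, 34.6% ± 9.68 in FNcKO 0 h, 5.63% ± 1.53 in WT 48 h and 21.7% ± 8.20 in WT 0 h, although its own level did not pass the test. Timp1 made up 53.1% ± 16.4 of the 3 TIMPs in FNcKO 48 h, 4.42% ± 0.681 in FNcKO 0 h, 56.3% ± 9.31 in WT 48 h and 1.36% ± 0.263 in WT 0 h. Shares are parts of a whole, so a lower share need not mean a lower level.

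**Figure D3:**
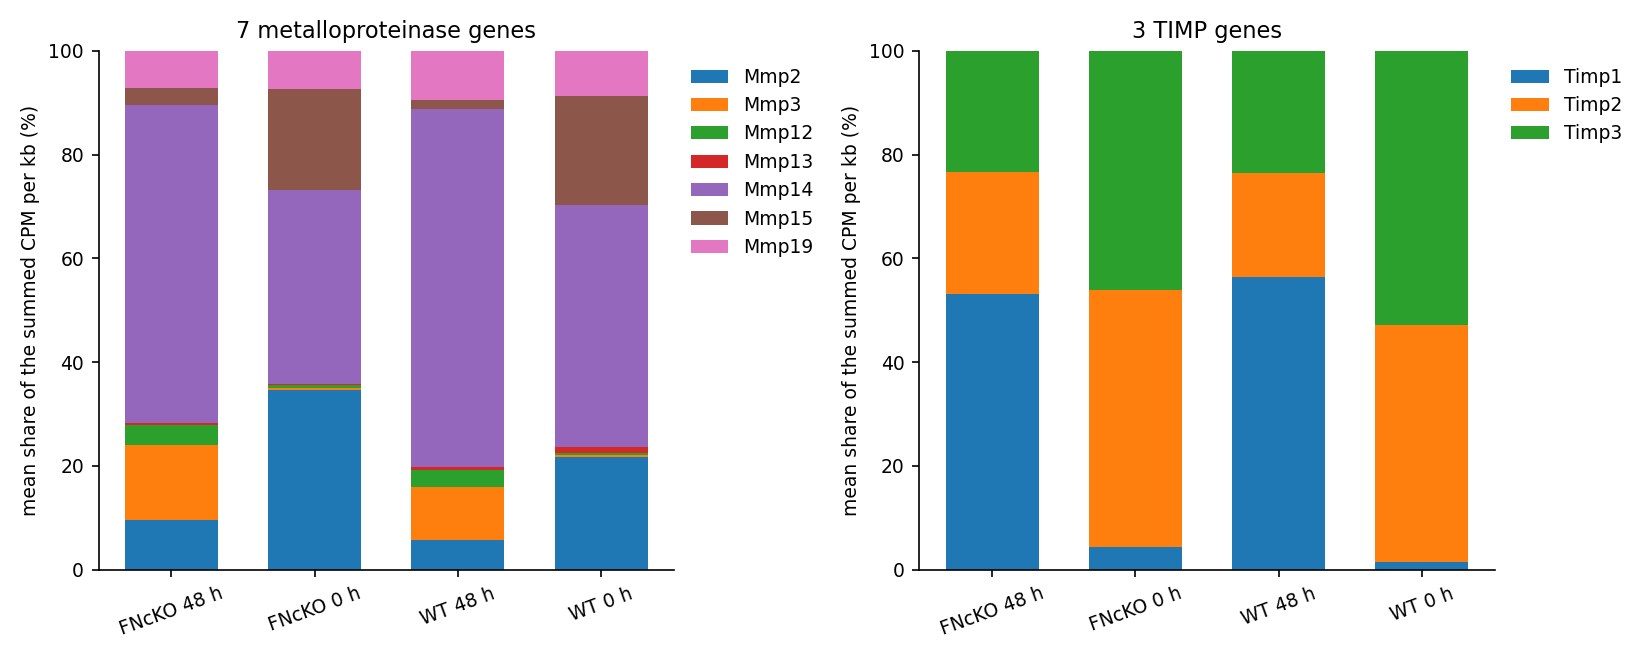
Mean share of each gene in the summed CPM per kb of the 7 metalloproteinases (left) and of the 3 TIMPs (right) in each group, as stacked bars from 0 to 100%. Mmp14 takes 61.4% in FNcKO 48 h and 69.0% in WT 48 h, and Timp1 takes 53.1% and 56.3%.

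The summed TIMP level divided by the summed enzyme level, both per kb, was 11.7, 10.3 and 8.01 in FNcKO 48 h libraries and 20.7, 23.0 and 17.6 in FNcKO 0 h libraries. It was 6.39, 6.52 and 6.93 in WT 48 h libraries and 14.5, 17.1 and 17.2 in WT 0 h libraries. The ratio was lower in each 48 h library than in any 0 h library, and at each time every FNcKO library was above every WT library; no test was made on it, since it is a score over chosen genes. Over all 23 Mmp and 4 Timp genes of the files, it was 8.71, 7.37 and 5.65 in FNcKO 48 h, 14.6, 16.2 and 12.5 in FNcKO 0 h, 3.46, 5.08 and 5.39 in WT 48 h, and 11.1, 12.4 and 12.5 in WT 0 h libraries. The ratio is one of RNA and not of protein or activity.

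None of the 10 genes passed the test between the genotypes at 48 h, where 0.240% of all tested genes did, or at 0 h, where 0.144% did. None passed for the difference between the 48 h responses of FNcKO and WT lenses, where the share over all genes was 0.00%: no gene of 14560 passed in edgeR, 735 had an unadjusted p under 0.05, and DESeq2 placed 28 past the threshold. The approximate 95% interval was wide for several genes, so a miss does not show that the genotypes were alike. At 48 h the log2 differences of lowest p, FNcKO against WT, were those of Mmp14 (−0.59 ± 0.24, edgeR, BH-adjusted p = 0.821) and Mmp19 (−0.96 ± 0.40, BH-adjusted p = 0.841). For Mmp14 the ranges overlapped, and for Mmp19 every FNcKO library was below every WT library, which held for 5.25% of all genes. WT 48 h replicate 1 had the highest Mmp14 and Mmp19 of the 12 libraries as well as the highest macrophage and neutrophil sums; without it the log2 difference of Mmp19 was −0.45 (BH-adjusted p = 1 in edgeR). Beside these values stand markers of other cells, FNcKO against WT at 48 h: of 9 pigment cell and ciliary body markers 3 passed as lower and 6 had ranges apart and lower (median log2 −2.94), and of 15 macrophage markers none passed and 6 had ranges apart and lower (median log2 −0.93), against a median of 0.012 over all genes. The summed pigment level was 21.6 to 70.0 CPM in FNcKO 48 h and 174 to 439.6 CPM in WT 48 h libraries, and the macrophage sums are given above. For the other marker lists the median log2 was −1.29 (neutrophil), −1.01 (vascular endothelial) and −0.87 (corneal epithelial). It was 0.076 for fibroblast and pericyte, 0.41 for lens epithelial and 0.20 for fiber cell markers. The part of these cells in the levels of Mmp14 and Mmp19 was not tested. The other genes at 48 h had log2 differences of 0.24 ± 0.32 (Mmp2), 0.24 ± 0.62 (Mmp3), −0.20 ± 0.51 (Mmp12), −1.29 ± 0.88 (Mmp13), 0.23 ± 0.34 (Mmp15), 0.05 ± 0.31 (Timp1), 0.32 ± 0.24 (Timp2) and 0.06 ± 0.22 (Timp3).

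At 0 h Timp1 had the lowest unadjusted p of the 10 genes. It averaged 19.0 ± 3.34 CPM in FNcKO 0 h and 4.80 ± 1.49 CPM in WT 0 h libraries (SD, n = 3), a 3.98-fold difference (log2 1.99 ± 0.36) in counts of 204, 150 and 117 against 41, 37 and 54. All 3 FNcKO libraries were above all 3 WT libraries, which in the higher direction held for 8.68% of all genes, and the unadjusted p was 0.000104, yet the BH-adjusted p over all genes was 0.0632 in edgeR. The adjusted p was under 0.05 without a filter on low counts (0.0448), with DESeq2 (3.42e-05), with only the 0 h groups in the fit (0.0213), and with WT 48 h replicate 1 (0.0365) or either replicate 1 (0.0271) or 3 (0.0225) of FNcKO 48 h left out. Over all alternatives it ran from 3.42e-05 to 0.350, with a log2 value between 1.74 and 2.27. Syn1, which overlaps Timp1, had 67, 124 and 48 counts in FNcKO 0 h and 187, 170 and 103 counts in WT 0 h libraries, ranges that overlapped and lay lower in FNcKO. Reads of this pair may have been mixed, and the Timp1 counts of WT 0 h libraries were the smaller of the pair in each.

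The difference of the 48 h responses of Timp1, FNcKO minus WT, was −1.94 ± 0.48 on the log2 scale (unadjusted p = 0.00136), which is a smaller rise in FNcKO lenses. This difference of the responses did not pass over all genes in edgeR (BH-adjusted p = 0.636) and did in DESeq2 (0.0483, with the same log2 value), and over all alternatives the adjusted p ran from 0.0483 to 1.00. The other 9 genes had a difference of the responses between −0.72 and 0.37 log2 units, with unadjusted p of at least 0.236. A further pair of genes had ranges at 0 h that did not overlap between the genotypes: Timp2, with 832, 824 and 922 CPM in FNcKO and 673, 521 and 748 CPM in WT libraries (log2 0.41 ± 0.24, edgeR, BH-adjusted p = 0.529), and Mmp14, with 21.5, 24.1 and 22.9 CPM in FNcKO and 24.5, 30.5 and 32.2 CPM in WT libraries (log2 −0.35 ± 0.25, BH-adjusted p = 0.59). Ranges that do not overlap were found at 0 h for 8.68% of all genes in the higher and 7.95% in the lower direction.

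The 48 h libraries of a group differed in their summed level of fiber cell markers, and 4 of the 10 genes ran in its order or the inverse in both genotypes. Of 10 fiber cell markers, 6 fell and none rose over 48 h in each genotype, where 9.90% of all tested genes fell in FNcKO and 13.5% in WT lenses. Their summed level was 8624, 4169 and 620.3 CPM in FNcKO 48 h libraries and 14125, 17863 and 28152 CPM in FNcKO 0 h libraries. It was 1022, 3948 and 3628 CPM in WT 48 h libraries and 17322, 11027 and 15776 CPM in WT 0 h libraries, and no marker was at 0 in all libraries. In both genotypes the levels of Timp1 and Mmp14 at 48 h ran in exactly the inverse order of this sum, and those of Mmp15 and Timp2 in exactly the same order. The remaining 6 genes did neither. Of all 14560 genes, 7.52% ran in the inverse and 6.90% in the same order in both genotypes at 48 h. At 0 h none of the 10 genes ran in either order in both genotypes. Pax6 did not follow the order of the fiber sum, with 368, 403 and 294 CPM in FNcKO 48 h and 393, 353 and 371 CPM in WT 48 h libraries. Cryaa did, with 64294, 44194 and 8887 CPM in FNcKO 48 h and 9783, 38669.5 and 32172 CPM in WT 48 h libraries. Cdh1 did too, with 3273, 2691 and 1350 counts in FNcKO 48 h and 1454, 2237 and 1747 counts in WT 48 h libraries. The CPM of the epithelial markers Foxe3 and Slc2a1 also ran in this order in both genotypes. Those of Npnt, Slc4a4 and Cryab did so in FNcKO but not in WT lenses. FNcKO 48 h replicate 1 had the highest fiber sum at 48 h and the lowest Timp1 and Mmp14 levels. The part of fiber cell content in these levels was not tested.

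**Figure D4:**
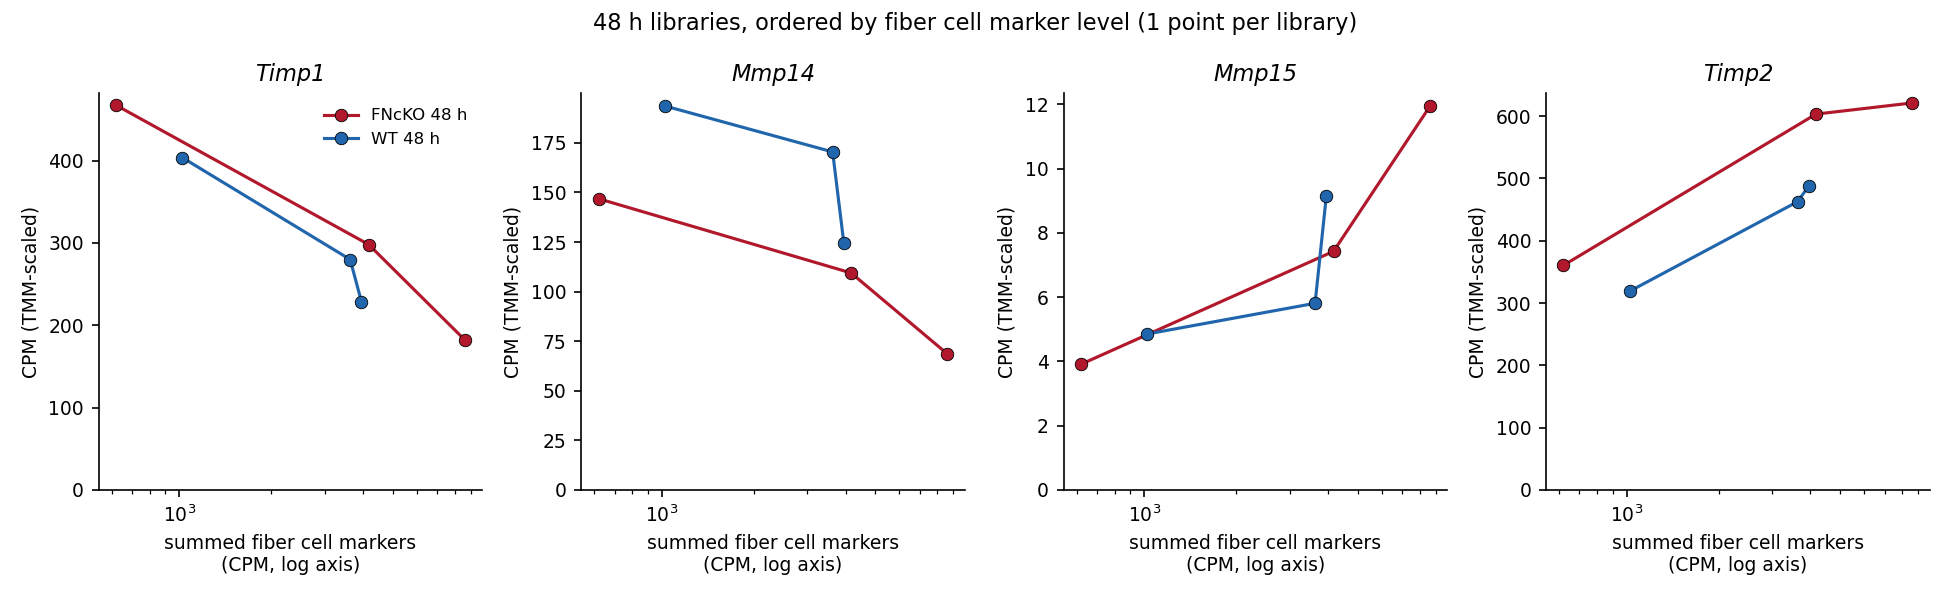
TMM-scaled CPM of 4 genes in each 48 h library (vertical, linear) against the summed CPM of 10 fiber cell markers (horizontal, log axis); each point is 1 library and lines join the 3 libraries of a genotype. Timp1 and Mmp14 go down and Mmp15 and Timp2 go up along the axis in both genotypes.

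Mmp3, Mmp12 and Mmp13 belong to a cluster of 10 Mmp genes on chromosome 9 (mm10, 7272514 to 7699416), a stretch of 426.903 kb in which the files list no other gene. In the order along the chromosome the genes are Mmp13, Mmp12, Mmp1b, Mmp3, Mmp1a, Mmp10, Mmp8, Mmp27, Mmp20 and Mmp7. Mmp12, Mmp3, Mmp8 and Mmp7 rose in both genotypes. At 0 h these genes had at most 6 counts in a library and entered the test through their 48 h libraries, so their number is not read as a share of the cluster. Mmp8, neutrophil collagenase, had 25, 35 and 82 counts in FNcKO 48 h libraries and 0, 1 and 0 in FNcKO 0 h libraries. It had 39, 17 and 6 counts in WT 48 h libraries and none in WT 0 h libraries, so that it was at least 19.1-fold higher against 3 counts over the group, and the ratio in FNcKO lenses was 124 (22.0 to 4944, exact 95% interval). Mmp7, matrilysin, was at 0 in all 6 of the 0 h libraries and had 7, 10 and 11 counts in FNcKO 48 h and 8, 44 and 7 in WT 48 h libraries, at least 8.17-fold and 18.1-fold higher against the same limit. Mmp10, which was not tested, had 22 counts over FNcKO 48 h and 3 over FNcKO 0 h, and 34 over WT 48 h and 3 over WT 0 h. Mmp27 had 2 counts in all, and Mmp1a, Mmp1b and Mmp20 had none in any library.

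**Figure D5:**
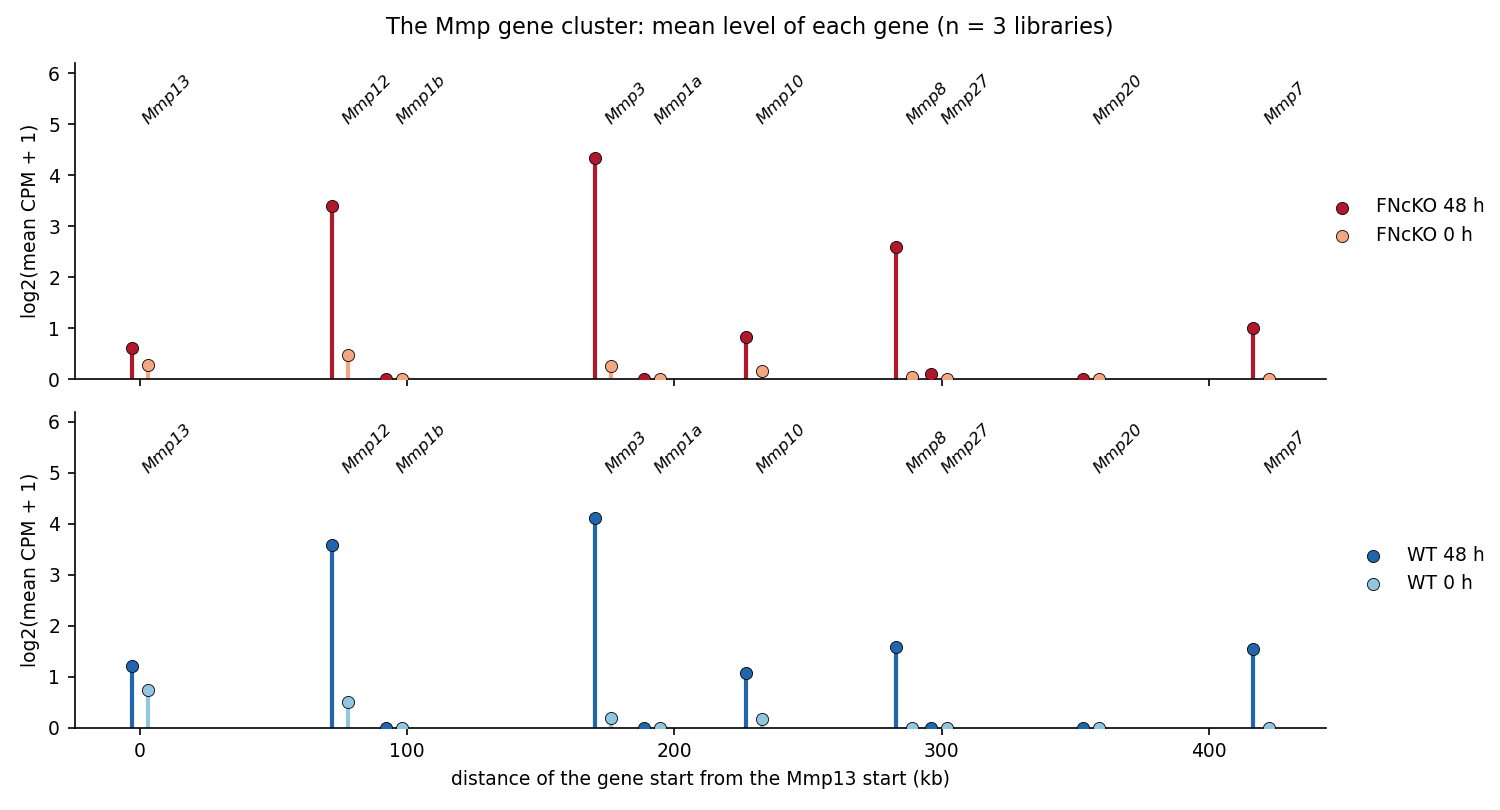
Mean level of the 10 Mmp genes of the chromosome 9 cluster, as log2(mean CPM + 1), against the distance of each gene's start from that of Mmp13 in kb, for FNcKO (top) and WT (bottom) at 48 h and 0 h; points of a gene are set side by side for sight. Mmp3 and Mmp12 are the tallest at 48 h in both genotypes, and all genes are below 1 on this axis at 0 h.

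Outside the cluster, Mmp9 (gelatinase B) also rose. It had 16.5, 48.1 and 81.6 CPM in FNcKO 48 h libraries, against 1.23, 1.39 and 2.29 CPM in FNcKO 0 h libraries. It had 249.5, 30.2 and 49.0 CPM in WT 48 h libraries, against 2.21, 2.04 and 0.361 CPM in WT 0 h libraries (log2 4.91 ± 1.00 in FNcKO and 6.11 ± 1.02 in WT lenses; approximate SE, edgeR, BH-adjusted p = 0.00556 and 0.0014). WT 48 h replicate 1, the library with the highest neutrophil and macrophage sums, also had the highest Mmp9 level. Of the 17 other Mmp and Timp genes, 14 had a count and 8 were tested; apart from Mmp7, Mmp8 and Mmp9, none passed over time, and none of the 8 passed between the genotypes. Mmp11, Mmp16, Mmp17, Mmp24 and Mmp28 did not pass in any comparison. Mmp28 had 4.44, 3.28 and 3.17 CPM in FNcKO 48 h and 0.571, 1.56 and 1.66 CPM in WT 48 h libraries, without overlap, as for 4.48% of all genes in that direction (log2 1.52 ± 0.50, edgeR, BH-adjusted p = 0.526). Timp4 had at most 3 counts in any library, and Mmp21 and Mmp23 had at most 7 in any. Mmp25, which the filter also left out, had 3, 3 and 7 counts in FNcKO 48 h and none in FNcKO 0 h libraries, and 59, 12 and 1 counts in WT 48 h and 0, 6 and 0 in WT 0 h libraries. The ratio of its summed counts in WT lenses was 11.1 (4.84 to 31.2, exact 95% interval for counting error only), and most of them came from WT 48 h replicate 1.

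Genes that act on these enzymes or that they act on were described from lists. Each tally of a list below stands beside the shares over all tested genes. These were 14.9% higher and 9.90% lower in FNcKO lenses, and 19.1% higher and 13.5% lower in WT lenses. Of 18 activators, inhibitors and uptake receptors of metalloproteinases, 16 were tested; 7 rose and 4 fell in FNcKO lenses, and 7 rose and 6 fell in WT lenses, a median log2 of 0.12 and 0.0096. Plaur, the receptor that holds urokinase at the cell surface, averaged 71.3 ± 51.2 CPM in FNcKO 48 h and 0.943 ± 0.554 in FNcKO 0 h, and 58.5 ± 22.3 in WT 48 h and 0.275 ± 0.200 in WT 0 h (SD, n = 3). Plau, urokinase itself, which starts the plasmin cascade that activates proenzymes, averaged 65.4 ± 44.5 CPM in FNcKO 48 h and 1.86 ± 0.776 in FNcKO 0 h, and 70.9 ± 40.2 in WT 48 h and 1.31 ± 0.496 in WT 0 h. Both rose in both genotypes (edgeR, BH-adjusted p between 8.58e-05 and 0.00103), as did Tfpi2, an inhibitor of plasmin (0.00385 in FNcKO and 0.000658 in WT lenses). Plaur had at most 11 counts and Tfpi2 at most 1 in any 0 h library. These 2 genes entered the test through their 48 h libraries, so their p values are not read as support. Spock3, a proteoglycan of the testican family, fell in both (log2 −2.52 in FNcKO and −2.14 in WT lenses, edgeR, BH-adjusted p = 0.00161 and 0.00295), and Spock2 and Pcsk6 fell in WT lenses (log2 −1.85 and −1.69, 0.0318 and 0.036) and had log2 values of −1.21 and −0.43 in FNcKO lenses (0.155 and 0.628).

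Of 13 AP-1 and ETS family factors, which are known to drive metalloproteinase promoters, 10 rose in FNcKO lenses and 11 in WT lenses, and none fell. Fosl1 averaged 5.03 ± 4.72 CPM in FNcKO 48 h and 0.112 ± 0.194 in FNcKO 0 h, and 2.25 ± 0.622 in WT 48 h and 0.0742 ± 0.0649 in WT 0 h (SD, n = 3). Ets1 averaged 56.7 ± 25.0 CPM in FNcKO 48 h and 3.71 ± 0.989 in FNcKO 0 h, and 43.8 ± 14.8 in WT 48 h and 2.49 ± 0.290 in WT 0 h. Fosl1, Ets1 and Fosb passed in both genotypes (edgeR, BH-adjusted p of 0.00253, 3.06e-05 and 0.00583 in FNcKO lenses, and 0.0051, 1.91e-05 and 0.000996 in WT lenses). The median log2 fold change of the list was 2.02 in FNcKO lenses and 2.09 in WT lenses.

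Of 15 cytokines and receptors known to induce metalloproteinases, 10 rose in FNcKO lenses and 11 in WT lenses, and none fell, with a median log2 of 2.05 and 2.24. Il6 averaged 2.64 ± 2.27 CPM in FNcKO 48 h and 3.60 ± 1.36 CPM in WT 48 h libraries and had no count at 0 h in either genotype. Osm, oncostatin M, passed in both genotypes (log2 3.94 in FNcKO and 7.07 in WT lenses, edgeR, BH-adjusted p = 0.00918 and 0.00088). Il1b averaged 17.7 ± 9.68 CPM in FNcKO 48 h and 4.38 ± 4.65 in FNcKO 0 h, and 49.7 ± 53.3 in WT 48 h and 1.11 ± 0.101 in WT 0 h; it rose in WT lenses (log2 5.47, edgeR, BH-adjusted p = 0.00272) and had a log2 value of 2.05 in FNcKO lenses (0.113). Both Osm and Il1b are made mainly by leukocytes, whose marker sums are given above.

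Of 17 interstitial and basement membrane proteins that these enzymes can cut, 4 rose and 2 fell in FNcKO lenses, and 3 rose and 6 fell in WT lenses. Col3a1, Col1a1 and Fn1 rose in both genotypes. Col1a1 averaged 50.6 ± 5.74 CPM in FNcKO 48 h and 6.16 ± 2.97 in FNcKO 0 h, and 329 ± 175 in WT 48 h and 3.95 ± 1.61 in WT 0 h (SD, n = 3), and it was lower in FNcKO than in WT lenses at 48 h (edgeR, BH-adjusted p = 0.0265). Of the basement membrane collagens, Col4a1 averaged 3568 ± 1523 CPM in FNcKO 48 h and 10369 ± 623 in FNcKO 0 h, and 2752 ± 1342 in WT 48 h and 8924 ± 3142 in WT 0 h. Col4a1 and Col4a2 fell in both genotypes (edgeR, BH-adjusted p = 0.0211 and 0.0203 in FNcKO lenses, 0.0104 and 0.0116 in WT lenses), and Col4a4 fell in WT lenses (0.0247) and had a log2 value of −1.16 in FNcKO lenses (0.105).

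Markers of other cell types moved as well. Of the tested markers, 4 of 7 endothelial ones rose in each genotype, 2 of 7 fibroblast and pericyte ones rose in each genotype while 1 fell in FNcKO and 2 fell in WT lenses, 1 of 4 corneal epithelial ones fell in each, and of 9 pigment cell and ciliary body ones 3 fell in FNcKO lenses and 2 rose and 2 fell in WT lenses. The pigment sum at 0 h was 153 to 184 CPM in FNcKO and 216 to 298 CPM in WT libraries. Ccr2, Ly6c2, Lum and Tie1 among the markers had at most 9 counts in any 0 h library, as did Tfpi2, Fosl1, Il1a, Tnf, Il6 and Osm among the other lists. Of the markers, Slc45a2, Cdh5, Emcn, Aif1, Krt12, Pecam1 and Mlana had at most 10, 11, 12, 15, 17, 21 and 54 counts in any 0 h library. Of the other lists, Plaur, Fosb and Col3a1 had at most 11, 15 and 18. The 0 h libraries alone would not have brought any of these genes past the filter, so they entered the test through their 48 h libraries. Their own tests over time and the tallies they stand in are therefore not read as support. Of 8 tested lens epithelial markers, 4 fell and none rose in each genotype. The endothelial sum was 22.7 to 55.5 CPM in FNcKO 48 h, 9.61 to 22.9 CPM in FNcKO 0 h, 46.9 to 89.7 CPM in WT 48 h and 17.6 to 47.5 CPM in WT 0 h, and the fibroblast and pericyte sum was 151 to 555, 427 to 609, 282 to 426 and 470.5 to 825 CPM in these groups. The part of these cells in the levels of the 10 genes was not tested.

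The genes most like Mmp3, the one with the largest rise in WT lenses, were found by the smallest root mean square difference of centred log2 CPM over the 12 libraries. They were Ccl7 (0.56), Ccl2 (0.62) and Cxcl1 (0.63 log2 units), all chemokines, against a median of 2.76 over all tested genes. Ccl2 averaged 186 CPM in FNcKO 48 h and 5.16 CPM in FNcKO 0 h, and 149 CPM in WT 48 h and 2.58 CPM in WT 0 h. The genes most like Mmp15, the one that fell, were Negr1 (0.18), Igdcc4 (0.19) and Cyp4v3 (0.21 log2 units), against a median of 0.96. Negr1 averaged 24.7 CPM in FNcKO 48 h and 75.5 CPM in FNcKO 0 h, and 22.8 CPM in WT 48 h and 71.2 CPM in WT 0 h. This measure describes the same 12 libraries and shares their depth and cell content.

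In the mm10 coordinates of the files, the genes outside the cluster lie on chromosome 8 (Mmp2, 92827328 to 92853420, and Mmp15, 95352337 to 95374293), chromosome 14 (Mmp14, 54431604 to 54441258), chromosome 10 (Mmp19, 128790910 to 128800824, and Timp3, 86300412 to 86349505), chromosome X (Timp1, 20870166 to 20874737) and chromosome 11 (Timp2, 118301061 to 118355411). Within the cluster Mmp3 lies at 7445822 to 7455974, Mmp12 at 7347374 to 7360461 and Mmp13 at 7272514 to 7283333. All are annotated as protein coding, on the plus strand except Timp2, and a count takes in the reads of the whole gene.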

How the data were processed

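Tools named in the submitters' processing notes are TopHat2 2.1.0, HTSeq 0.6.1p1, SAMtools 1.4, bedtools 2.17, Trim Galore 0.4.4, FastQC and edgeR 3.16.5, with mm10 as build; no source used gives their order, the annotation or the strand setting. Per the labels, TruSeq libraries were made with a stranded kit. The authors deposited a whole-number read count per gene and library. They also deposited an RPKM per gene, per the file headers, which equals the count over coding length and library sum and was not tested. A combined table holds 9 libraries; 8 equal their own file, but the one named WT 0 h replicate 1 holds, for all 24147 genes, the counts deposited for FNcKO 0 h replicate 1, so each library's own file was used throughout. That file's 199 counts of Gm9199 lie beside 114 and 108 in the other WT 0 h libraries, against at most 2 in FNcKO libraries. Gm9199 was chosen for this check after its values were seen.

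In R 4.3.3 and edgeR 4.0.16, filterByExpr by group kept 14560 genes, libraries were TMM-scaled, and all 12 libraries entered a robust quasi-likelihood fit with a mean for each of the 4 groups. The F test was adjusted by Benjamini-Hochberg over all tested genes of each of 5 comparisons. The SE is the log2 value over the square root of F, an approximation. Scripts were tested on simulated counts. CPM per kb divides by the coding length in the files. The alternatives were other scalings, filters and fits, DESeq2 1.42.0, each library left out, and both 0 h replicate 1 libraries left out. The 10 genes and all lists were chosen with earlier results of these data known. Named were all 10 genes, every other Mmp or Timp gene with a count, up to 3 genes per list and direction with the largest change in WT lenses, and the 3 genes nearest in pattern to the member with the largest rise and to the one with the largest fall. Adgre1 is Emr1 in the files, and Ly6g was not analysed here.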

Additional observations from a re-analysis of the deposited data

How the results depend on the processing

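Mmp3 and Mmp12, which entered the test through their 48 h libraries, are among the genes counted over time here. The number of the 10 genes past the threshold was 6 over time in each genotype and ran from 5 to 8 in FNcKO and 6 to 8 in WT lenses over 20 alternatives. At 48 h it was 0 between the genotypes in all of them. Under leave-one-out it ran from 5 to 7 in FNcKO lenses over time, and from 0 to 1 between the genotypes at 0 h, where it was 0 with all libraries. It was also 1 there without a filter on low counts, with DESeq2 and with only the groups compared, each time Timp1, and it was 1, again Timp1, for the difference of the responses with DESeq2. The cause of these changes was not tested.

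Over all genes, 3611 passed over time in FNcKO lenses, 2299 with both 0 h replicate 1 libraries left out and 2232 to 4095 under leave-one-out, lowest without FNcKO 48 h replicate 3. At 48 h, 35 genes passed between the genotypes, 122 with DESeq2, 7 with only the groups compared, 14 with both 0 h replicate 1 libraries left out and 10 to 46 under leave-one-out. At 0 h, 21 passed, 10 with total-count scaling, 130 with DESeq2, 2 with both 0 h replicate 1 libraries left out and 2 to 28 under leave-one-out. For the difference of the responses 0 passed, 28 with DESeq2 and 0 to 1 under leave-one-out.

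Replicate numbers are shared between groups, but the deviations of same-numbered libraries correlated over 0.1 in only 4 of 18 pairs (r −0.474 to 0.291, median −0.0975). No pairing by number was visible in this, but a weak correlation cannot exclude one. With replicate as a block the counts of the 10 genes were the same in each comparison (6, 6, 0, 0 and 0), and 1 gene over the genome passed for the difference of the responses; Timp1 at 0 h had an edgeR BH-adjusted p of 0.077 with the block.

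Some log2 values that passed in no setting changed sign. With total-count scaling these were Mmp2 over time in WT lenses (0.14), Timp1 (−0.017) and Timp3 (−0.034) between genotypes at 48 h, Timp3 at 0 h (−0.041), and the difference of the responses of Mmp12 (0.047) and Timp3 (0.0070). With both 0 h replicate 1 libraries left out they were Mmp2 over time in WT lenses (0.23), Mmp12 (0.46) and Timp3 (−0.086) at 0 h, and the response difference of Timp3 (0.15); with the block it was that of Mmp12 (0.054). Under leave-one-out the ranges were −0.40 to 0.23 for Mmp2 over time in WT lenses. At 48 h they were −0.79 to 0.97 (Mmp3), −0.59 to 0.45 (Mmp12), −0.22 to 0.55 (Mmp15), −0.34 to 0.33 (Timp1) and −0.032 to 0.18 (Timp3). At 0 h they were −0.17 to 0.92 (Mmp3), −0.85 to 0.18 (Mmp12), −0.82 to 0.081 (Mmp19) and −0.035 to 0.26 (Timp3). For the response difference they were −1.26 to 0.50 (Mmp3), −0.42 to 0.63 (Mmp12), −0.64 to 0.93 (Mmp13), −0.085 to 0.69 (Mmp15), −0.26 to 0.12 (Timp2) and −0.21 to 0.095 (Timp3). With 3 libraries per group and 0 to 3 counts per library at 0 h, the levels of Mmp3 at 0 h cannot be compared between genotypes at this depth.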
